A study of Mus musculus with 5 samples.

Results

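The genes described here are 6 Hox genes, Hoxa5, Hoxa7, Hoxa9, Hoxa10, Hoxb4 and Hoxb5, together with Meis1, Pbx2 and Mllt3, which work with Hox proteins or upstream of Hox genes. They were taken by gene symbol from the study's expression tables, and each of the 9 matched 1 of 38166 features in the tables of stem and progenitor cells and 1 of 34315 features in the tables of granulocytes. The study sequenced polyA-selected RNA of C57BL/6 mouse bone marrow cells in 5 libraries. The stem and progenitor libraries hold KSL cells, which carry c-Kit and Sca-1, lack lineage markers and include the blood stem cells. Their source was Sca-1+ cells from mice injected with 5-FU (5-fluorouracil, a drug that kills dividing blood cells). These cells were infected with a knockdown retrovirus that carries GFP, a green fluorescent marker, kept for 2 days in medium with 10 ng/ml mSCF and 100 ng/ml mTPO (mouse stem cell factor and thrombopoietin), and sorted for c-Kit+Sca-1+Lin-GFP+ cells. The 3 KSL groups, with 1 library each, are LncHSC-1-KD and LncHSC-2-KD, in which the virus targets the long noncoding RNA of that name, and Control-KD, which received the control virus; drug, virus and culture are shared by all 3. The granulocyte libraries are 2 technical replicates of 1 biological replicate of Gr1+ cells sorted directly from bone marrow of mice aged 12 months, so their mean counts as 1 sample. B cell libraries named in the study's design were not analysed here, and neither were the levels of the targeted RNAs, so the knockdown labels have no check from them.

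Hox genes encode homeodomain transcription factors, sit in clusters in the genome and are numbered by their position in the cluster. Hox proteins bind DNA with little selectivity alone and gain it by pairing with TALE homeodomain proteins of the Pbx and Meis families. In mouse bone marrow Hoxa9 and Meis1 are known as genes of stem and early progenitor cells that are shut down as cells mature, and their forced joint expression causes leukaemia in mice. Mllt3 (AF9) is a subunit of the super elongation complex, reads acetylated histone H3 and is a frequent fusion partner of the histone methyltransferase MLL, an activator of Hox genes.

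Because each group has a single library, conditions could not be tested: p-values are absent throughout and values carry no replicate error. Levels are given as FPKM (fragments per kilobase of transcript, scaled to the depth of the library for KSL cells), on which genes of different length can be compared. In granulocytes the deposited scores per kilobase were divided by a fixed 50 in both libraries, whose scores total 40.4 M each. Estimated depth was 24.1, 19.9 and 21.0 M reads in the LncHSC-1, LncHSC-2 and control libraries. The KSL and granulocyte FPKM were made with different divisors in separate tables, so no fold between them is given. The labels were first set against marker genes. The 5 genes of the KSL sort list (Kit, Ly6a, Cd34, Slamf1 and Mecom) summed to 1497, 1345 and 1330 FPKM in the LncHSC-1, LncHSC-2 and control libraries, with all 5 above 5 FPKM, and to 8.69 and 8.93 FPKM in the granulocyte libraries. The 10 granulocyte genes, led by S100a8 and S100a9, summed to 140554 and 143433 FPKM in granulocytes and to between 172 and 189 FPKM in the KSL libraries. Both sums ran the way the labels say, but the granulocyte sum is mostly S100a8 and S100a9, at 55377 and 60165 FPKM in replicate 1. Mpo, of the same list, had 52.6, 64.0 and 61.9 FPKM in the LncHSC-1, LncHSC-2 and control libraries. In granulocytes it had 62.0 and 61.3 FPKM. All 10 genes were at 5 FPKM or more in granulocytes, and 6 of them in each KSL library.

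The 4 promoters below belong to the genes on which the levels turn: Hoxa9 and Meis1, the highest Hox gene and the highest of the 9 genes in KSL cells, and Pbx2 and Hoxb4, the only 2 of the 9 above 1 FPKM in granulocytes. Each is the 300-base window from 250 bases before to 50 bases after a RefSeq start site in GRCm38.p6, printed 5′ to 3′ on the strand of the gene, with CG dinucleotides in capitals. The tables of the study use mm9, so these positions do not carry over to the gene positions given further on. The Hoxa9 window is chr6:52227321-52227620 on the minus strand and the Meis1 window chr11:19018920-19019219 on the minus strand. The Pbx2 window is chr17:34592009-34592308 on the plus strand and the Hoxb4 window chr11:96318017-96318316 on the plus strand.
Hoxa9: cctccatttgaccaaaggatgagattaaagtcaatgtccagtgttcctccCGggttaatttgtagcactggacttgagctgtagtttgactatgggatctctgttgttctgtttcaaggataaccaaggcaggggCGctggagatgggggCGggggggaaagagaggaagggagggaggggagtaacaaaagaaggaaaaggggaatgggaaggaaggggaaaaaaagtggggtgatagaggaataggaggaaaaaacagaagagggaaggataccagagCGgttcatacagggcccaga
Meis1: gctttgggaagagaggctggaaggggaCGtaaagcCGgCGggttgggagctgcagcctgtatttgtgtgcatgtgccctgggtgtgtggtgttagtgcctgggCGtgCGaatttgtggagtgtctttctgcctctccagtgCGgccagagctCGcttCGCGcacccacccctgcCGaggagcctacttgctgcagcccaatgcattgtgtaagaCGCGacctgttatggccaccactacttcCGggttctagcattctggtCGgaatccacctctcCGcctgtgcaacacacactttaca
Pbx2: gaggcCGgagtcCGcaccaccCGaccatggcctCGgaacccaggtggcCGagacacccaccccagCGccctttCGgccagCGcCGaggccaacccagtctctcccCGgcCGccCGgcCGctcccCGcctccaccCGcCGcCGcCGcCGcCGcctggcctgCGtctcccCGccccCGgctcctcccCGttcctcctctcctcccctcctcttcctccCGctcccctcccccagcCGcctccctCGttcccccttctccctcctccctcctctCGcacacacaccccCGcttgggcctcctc
Hoxb4: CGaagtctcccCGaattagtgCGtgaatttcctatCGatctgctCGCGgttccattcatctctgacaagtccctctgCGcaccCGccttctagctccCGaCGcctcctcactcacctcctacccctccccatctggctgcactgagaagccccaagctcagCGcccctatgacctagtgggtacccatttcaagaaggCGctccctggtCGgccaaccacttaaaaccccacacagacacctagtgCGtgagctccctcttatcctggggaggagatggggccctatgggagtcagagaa
The Hoxa9 window holds 4 CG dinucleotides and has 49.7% G + C, the Meis1 window holds 15 with 58.3%, the Pbx2 window holds 29 with 76.0% and the Hoxb4 window holds 14 with 58.0%. Over the 32851 promoter windows of this length the median was 7 CG dinucleotides and 52.7% G + C. Hoxa9 thus had fewer CG dinucleotides than the typical window and the other 3 more. RefSeq windows were found for 8 of the 9 genes, 10 windows in all, since Hoxa10 and Mllt3 have 2 start sites each. They were searched on both strands for TGACAG (bound by Meis proteins), TGATNNAT (bound by Pbx and Hox pairs) and TAATTA (a homeodomain core); a TGATNNAT match can overlap a TAATTA match. Among all windows of this length 19.2% hold TGACAG, 8.85% hold TGATNNAT and 5.29% hold TAATTA. None of the 4 printed windows holds any of the 3, and among the other 6 the second start site of Mllt3 holds 1 match, CTGTCA, the reverse complement of TGACAG. These are matches of letters, not sites of binding.

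Meis1, the TALE cofactor that binds DNA beside Hoxa9, was the highest of the 9 genes in all 3 KSL libraries. Its level was 36.5 FPKM in the LncHSC-1 library, 34.8 FPKM in the LncHSC-2 library and 38.9 FPKM in the control library, from 3515, 2718 and 3218 estimated reads. It lay at percentile 86.3 to 87.8 of the features detected in those libraries. Pbx2, a TALE cofactor of the Pbx family that pairs with Hox proteins and with Meis1, came next with 20.7 FPKM in the LncHSC-1 library, 21.0 FPKM in the LncHSC-2 library and 20.7 FPKM in the control library. The highest Pbx2 level was 1.02 times the lowest, the narrowest range of the 9 genes.

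Hoxa9, which promotes self-renewal of progenitors, was the highest of the 6 Hox genes. It had 11.2 FPKM in the LncHSC-1 library, 9.10 FPKM in the LncHSC-2 library and 10.2 FPKM in the control library, from 696, 460 and 545 estimated reads. The control level lay between those of the 2 knockdown libraries. Hoxa10, its neighbour in the Hoxa cluster with roles in myeloid and megakaryocyte progenitors, had 6.40 FPKM in the LncHSC-1 library, 5.50 FPKM in the LncHSC-2 library and 5.78 FPKM in the control library, the same order of libraries as Hoxa9. Hoxa7, a Hox gene that MLL fusions switch on in leukaemia along with Hoxa9, had 5.35 FPKM in the LncHSC-1 library, 5.58 FPKM in the LncHSC-2 library and 5.11 FPKM in the control library. For Hoxa7 it was the control library that was lowest. Hoxa5, a regulator of the choice between erythroid and myeloid fates, had 3.24 FPKM in the LncHSC-1 library, 3.87 FPKM in the LncHSC-2 library and 3.93 FPKM in the control library, from 164, 159 and 171 estimated reads. It was lowest in the LncHSC-1 library.

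The 2 Hoxb genes were lower. Hoxb4, which expands mouse blood stem cells when overexpressed, had 2.73 FPKM in the LncHSC-1 library, 2.64 FPKM in the LncHSC-2 library and 2.64 FPKM in the control library, from 194, 152 and 161 estimated reads, so that its libraries can hardly be told apart. Hoxb5, known in mice as a marker of long-term stem cells, had 0.780 FPKM in the LncHSC-1 library, 0.963 FPKM in the LncHSC-2 library and 0.978 FPKM in the control library. These Hoxb5 levels rest on 40, 40 and 43 estimated reads, the fewest of the 9 genes. Mllt3 had 7.03 FPKM in the LncHSC-1 library, 6.42 FPKM in the LncHSC-2 library and 7.42 FPKM in the control library, placing it between Hoxa9 and Hoxa10.

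By mean level over the 3 KSL libraries the order was Meis1, Pbx2, Hoxa9, Mllt3, Hoxa10, Hoxa7, Hoxa5, Hoxb4 and Hoxb5. The ranges of neighbours in this order overlapped only for Hoxa10 and Hoxa7, whose order differed between libraries: Hoxa7 was at 0.836, 1.01 and 0.884 times the Hoxa10 level in the LncHSC-1, LncHSC-2 and control libraries. Mllt3 and Hoxa10 were also close, the lowest Mllt3 level of 6.42 FPKM standing beside the highest Hoxa10 level of 6.40 FPKM. Within a library, Meis1 was at 3.27 times the Hoxa9 level in the LncHSC-1 library, 3.82 times in the LncHSC-2 library and 3.82 times in the control library.

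**Figure D1:**
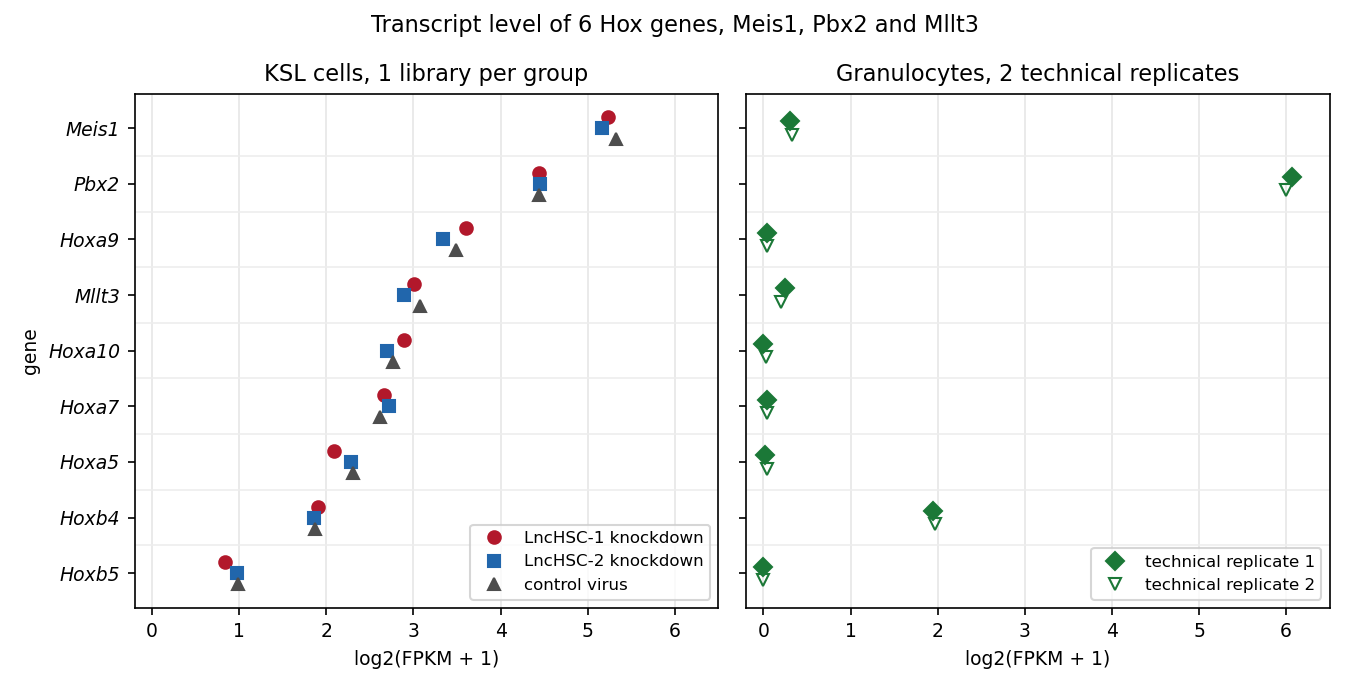
Level of each gene as log2(FPKM + 1), with the LncHSC-1, LncHSC-2 and control KSL libraries on the left (1 library each) and the 2 granulocyte technical replicates on the right. The 3 KSL points of a gene lie close together, at most 25.3% apart in FPKM, while in granulocytes only Pbx2 and Hoxb4 lie above 1 FPKM.

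In granulocytes 7 of the 9 genes were at or near 0, while Pbx2 and Hoxb4 were present. Hoxa5 was listed at 0.0107 and 0.0320 FPKM in the 2 technical replicates, Hoxa7 at 0.0308 FPKM in both and Hoxa9 at 0.0264 FPKM in both. Hoxa10 was listed at 0 and 0.0191 FPKM and Hoxb5 at 0 in both. These 5 genes had deposited scores of at most 3 in either library, whose scores total 40.4 M each. Meis1 was at 0.239 and 0.257 FPKM and Mllt3 at 0.190 and 0.155 FPKM, which put them between percentiles 29.7 and 34.8 of the features detected there. Bulk RNA cannot tell a small share of cells with these transcripts from a low level in every cell.

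Pbx2 was at 66.3 and 62.7 FPKM in granulocytes, at percentile 96.2 and 96.1 of the detected features, against percentile 77.5 to 78.4 in the KSL libraries. It was the highest of the 9 genes there, with Meis1, the highest in KSL cells, at percentile 33.4 and 34.8. Hoxb4 was at 2.86 and 2.92 FPKM, percentile 61.9 and 63.0, against percentile 45.5 to 47.0 in the KSL libraries. The percentiles of both genes were thus higher in granulocytes, although the 2 kinds of table list different features, while Hoxa9 stood at percentile 11.8 and 12.0 there and at percentile 62.1 to 66.8 in the KSL libraries. No feature of the granulocyte tables overlaps Hoxb4 at chr11:96179581-96182952, or Pbx2 at chr17:34729416-34734286, both on the plus strand in mm9. The technical replicates differed little for both genes, which measures only the spread of library preparation and sequencing.

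Among all 39 Hox genes the KSL signal came from the Hoxa and Hoxb clusters. The Hoxa cluster held 74.6%, 76.1% and 75.4% of the summed Hox FPKM in the LncHSC-1, LncHSC-2 and control libraries, and the Hoxb cluster held 24.2%, 23.6% and 23.4%. The Hoxc and Hoxd clusters summed to at most 0.474 FPKM and 0.0329 FPKM in any KSL library. The 6 Hox genes chosen here made up 70.4%, 68.9% and 71.8% of all Hox FPKM, so most of the Hox signal is described by them.

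Of those others, 5 reached 1 FPKM in at least 1 KSL library. Hoxb2, an anterior Hoxb gene, had 3.11 FPKM in the LncHSC-1 library, 2.62 FPKM in the LncHSC-2 library and 2.80 FPKM in the control library. Hoxb3, next to Hoxb4 in the cluster, had 2.73 FPKM in the LncHSC-1 library, 2.64 FPKM in the LncHSC-2 library and 2.25 FPKM in the control library. Hoxa6 had 2.39, 2.97 and 1.84 FPKM in the same order of libraries, from only 38, 38 and 25 estimated reads. The log2 ratio of Hoxa6 without a pseudocount, LncHSC-2 over control, has a 95% counting interval from -0.07 to 1.48, which includes 0. Hoxa3 had 1.251, 1.788 and 1.524 FPKM and Hoxa4 0.892, 1.01 and 0.866 FPKM in the LncHSC-1, LncHSC-2 and control libraries. For Hoxa3 the interval of LncHSC-1 over LncHSC-2 ran from -0.94 to -0.09 and leaves out 0, whereas the other intervals of these 5 genes include 0. Levels within the Hoxa cluster were therefore highest at paralog groups 9, 10 and 7, whereas those of the Hoxb cluster were highest at groups 2 to 4.

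In granulocytes the balance of the clusters was the other way round. The Hoxb cluster held 97.2% and 95.5% of the summed Hox FPKM of 4.14 and 4.18, nearly all of it Hoxb4 together with Hoxb3 at 0.866 and 0.893 FPKM. Hoxb1 was listed at 0.280 and 0.173 FPKM, and an unnamed antisense feature lies over it. Hoxb2, which matched Hoxb3 and Hoxb4 in level in KSL cells, was at 0.0123 FPKM in both granulocyte libraries. The Hoxa cluster summed to 0.104 and 0.174 FPKM.

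**Figure D2:**
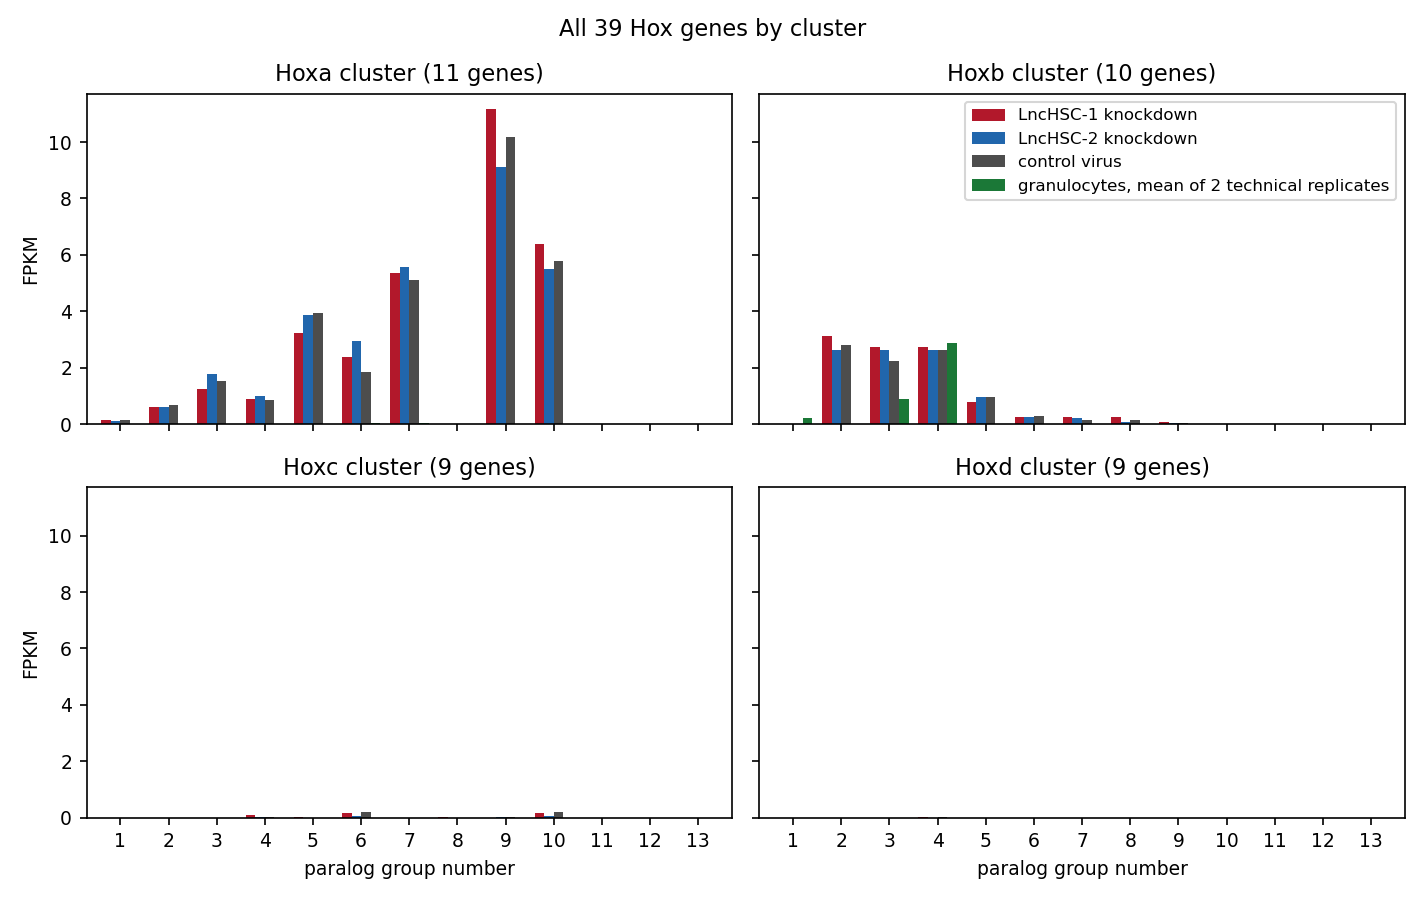
FPKM of all 39 Hox genes by paralog group number in the 4 clusters, with bars for the LncHSC-1, LncHSC-2 and control KSL libraries and for the mean of the 2 granulocyte technical replicates. Hoxa9 stands highest, at 9.10 to 11.2 FPKM in KSL cells, and the granulocyte bars that can be seen are those of Hoxb4, Hoxb3 and Hoxb1.

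The knockdown libraries were then compared with the control library as the log2 ratio of FPKM + 1, and differences of 25% (the higher value over the lower, on FPKM + 1) and of 2-fold served as rules of size. None of the 9 genes differed by 25% or more in either knockdown comparison or between the knockdowns, and 6 of them had a mean of at least 5 FPKM. Among the 9153 features at that floor, the LncHSC-1 library had 3.7% higher and 2.13% lower than control by that 25%, and 0.634% and 0.426% higher and lower by 2-fold. For LncHSC-2 over control the shares were 2.29% and 1.64% at the 25% size and 0.601% and 0.35% at 2-fold. For LncHSC-1 over LncHSC-2 they were 3.3% and 2.52% at the 25% size and 0.535% and 0.612% at 2-fold. Most features thus differed by under 25%, as the 9 genes did, and a count of 0 of 9 is near what these shares give. In the deposited count columns, whose scale sets the median of all features at -0.14 for LncHSC-2 over control and 0.12 for LncHSC-1 over LncHSC-2, 1 and 2 of the 9 genes passed 25%. Both knockdown comparisons use the same control library, so they do not support each other.

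The median log2 ratio of the 6 genes at the floor was 0.03 for LncHSC-1 over control, where the median of all features was -0.02. For LncHSC-2 over control it was -0.10, with an all-feature median of 0.00, and for LncHSC-1 over LncHSC-2 it was 0.09, with an all-feature median of -0.03. Single members spread from -0.09 to 0.13 in the LncHSC-1 comparison and from -0.18 to 0.11 in the LncHSC-2 comparison.

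The 95% counting interval of a ratio without a pseudocount, which covers counting error only and compares libraries, left out 0 for 1 of the 6 genes in LncHSC-1 over control, 2 in LncHSC-2 over control and 3 in LncHSC-1 over LncHSC-2. Over all features at the floor with reads in both libraries the shares were 39.9%, 26.2% and 36.2%. The members' counts are too small to set apart from these shares.

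Meis1 was lower in both knockdown libraries than in the control library. The log2 ratio of FPKM + 1 was -0.09 for LncHSC-1 over control, and without a pseudocount the counting interval ran from -0.16 to -0.02. For LncHSC-2 over control it was -0.16, with a counting interval from -0.24 to -0.09. In fold these are differences of 1.07 and 1.12, small beside the 25% rule, and the antisense feature within Meis1 described further on went the other way. Whether Meis1 and that feature share reads was not tested.

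Mllt3 was also lower in both. Its log2 ratio was -0.07 for LncHSC-1 over control, with a counting interval from -0.20 to 0.04 that includes 0, and -0.18 for LncHSC-2 over control, with a counting interval from -0.34 to -0.08. Between the knockdowns the Mllt3 interval ran from 0.01 to 0.26.

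Hoxa9 lay above the control library in LncHSC-1 and below it in LncHSC-2. The log2 ratio was 0.12 for LncHSC-1 over control, with a counting interval from -0.03 to 0.30, and -0.15 for LncHSC-2 over control, with a counting interval from -0.34 to 0.02. Both intervals include 0. Between the 2 knockdown libraries the log2 ratio of Hoxa9 was 0.27, 1.20-fold, with a counting interval from 0.12 to 0.47. On FPKM + 1 this was the largest difference of the 9 genes in any of the 3 comparisons. Without a pseudocount it was 0.29, and Hoxb5 differed more, at -0.33 for LncHSC-1 over control and -0.30 for LncHSC-1 over LncHSC-2, with intervals that include 0. Hoxa10 differed the same way between the knockdowns, at 0.19, with a counting interval from 0.00 to 0.44 that barely leaves out 0.

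The remaining 5 genes had intervals that include 0 in all 3 comparisons. Hoxa5 had a log2 ratio of -0.22 for LncHSC-1 over control, with a counting interval from -0.60 to 0.04. Hoxb5 had -0.15 in the same comparison, and its interval from -0.98 to 0.33 was the widest of the 9 genes there. The pseudocount thus understates the difference of a gene at this level. Pbx2 was the most tightly bounded of these 5, with intervals from -0.10 to 0.11 for LncHSC-1 over control and from -0.09 to 0.13 for LncHSC-2 over control. For Hoxb4 the interval of LncHSC-2 over control ran from -0.33 to 0.33, so a difference of about 25% either way was not detectable at this depth.

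**Figure D3:**
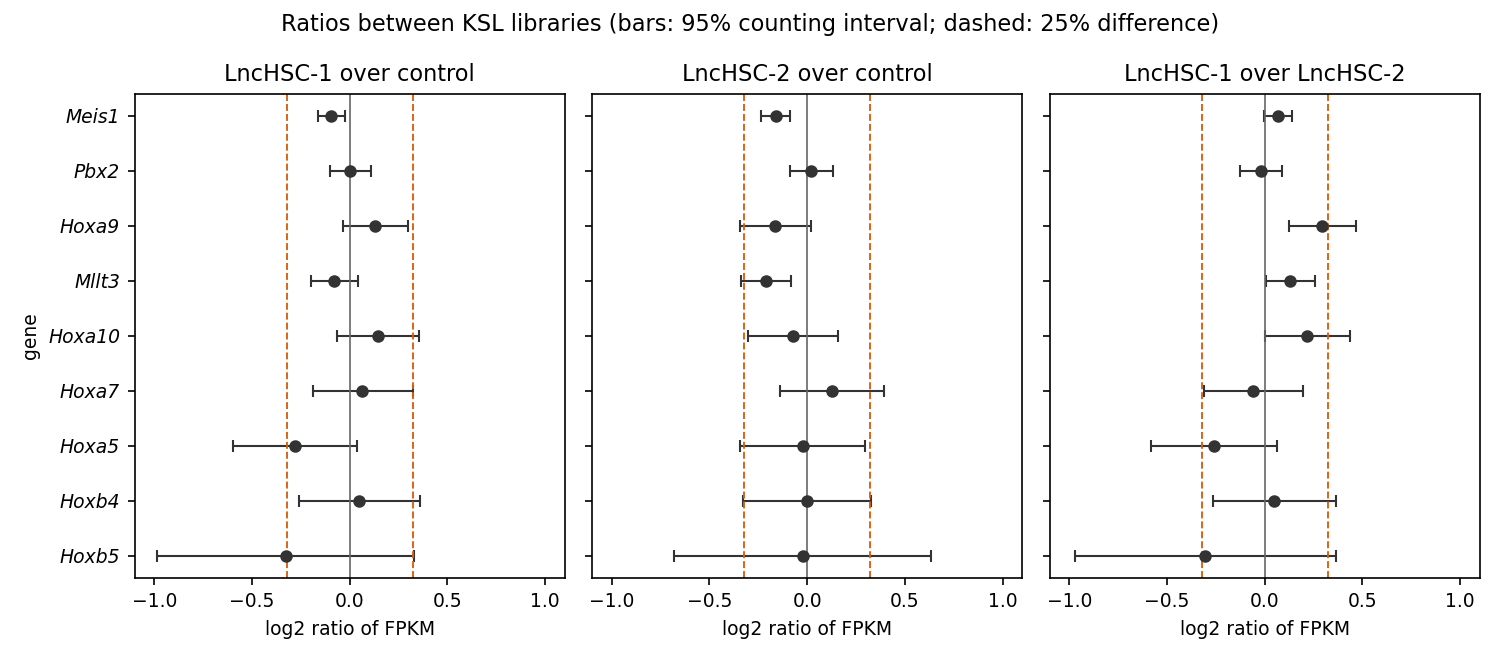
Log2 ratio of FPKM without a pseudocount for each gene between KSL libraries, with bars for the 95% counting interval and dashed lines at a 25% difference. Intervals widen from Meis1, with 2718 to 3515 estimated reads, to Hoxb5, with 40 to 43, and only Hoxb5 in LncHSC-1 over control reaches a dashed line with its point.

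Some of these genes share their locus with other transcripts, and the sources used here do not say whether counting used strand. Meis1, on the minus strand at chr11:18780431-18918972 in mm9, contains the unnamed antisense feature HAG_004589. That feature had 10.1 FPKM in the LncHSC-1 library, 11.9 FPKM in the LncHSC-2 library and 8.14 FPKM in the control library, from 162, 155 and 112 estimated reads, so it was lowest where Meis1 was highest. Its reads are few beside those of Meis1. Hoxa10, at chr6:52181196-52190853 on the minus strand, overlaps the antisense feature HAG_032762, which had 17.0, 14.3 and 13.5 estimated reads in the LncHSC-1, LncHSC-2 and control libraries. Hoxa5, at chr6:52151753-52154586 on the minus strand, lies within the long Hoxa3 feature on the same strand and under the antisense RNA 2700086A05Rik. A read there can overlap several of these features, although the estimated reads of Hoxa5, Hoxa3 and that RNA were whole numbers. In the LncHSC-2 library they held fractions for Meis1 (2717.5) and HAG_004589 (154.5), and for Hoxa10 (295.7) and HAG_032762 (14.3). In the control library the Meis1 pair had 3217.7 and 112.3, and the Hoxa10 pair 326.5 and 13.5. In the LncHSC-1 library the Meis1 pair had 3515.1 and 161.9, and the Hoxa10 pair 432 and 17.0. Whether overlapping features share reads was not tested. No other feature of the granulocyte tables overlaps Hoxa7 at chr6:52165623-52168572, Hoxa9 at chr6:52174053-52177369, Hoxb5 at chr11:96164826-96167435 or Mllt3 at chr4:87415829-87679311. Features listed only for KSL cells were not searched.

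The noncoding RNAs of the Hox loci include Mira, transcribed between Hoxa6 and Hoxa7 and described as an activator of Hoxa6 and Hoxa7 in mouse embryonic stem cells. It was above every Hox gene in level, with 13.6 FPKM in the LncHSC-1 library, 17.8 FPKM in the LncHSC-2 library and 17.9 FPKM in the control library, from 256, 271 and 288 estimated reads. The log2 ratio of Mira was -0.37 for LncHSC-1 over control and -0.37 for LncHSC-1 over LncHSC-2, past 25% in both, each with a counting interval from -0.64 to -0.14. It was the only Hox locus transcript at the floor to pass that size, and Hoxa7, its neighbour, was within 25% in all 3 comparisons. Mira stood at 2.54 times the Hoxa7 level in the LncHSC-1 library, 3.20 times in the LncHSC-2 library and 3.49 times in the control library. In granulocytes Mira was at 0.1004 and 0.0753 FPKM. Of the 15 noncoding RNAs listed, 7 matched a feature by symbol. The microRNA genes of the Hox loci, Mir10a, Mir10b, Mir196a-1, Mir196a-2 and Mir196b, were listed at 0 in the KSL tables; polyA-selected libraries do not sample mature microRNAs.

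Other TALE genes were present beside Meis1 and Pbx2, and none of the 5 at the floor differed by 25%. This too is near the share over all features, at most 3.7% in either direction. Pbx3, a partner of Hoxa9 in leukaemia, had 7.92, 8.61 and 7.80 FPKM in the LncHSC-1, LncHSC-2 and control libraries and 0.663 and 0.621 FPKM in granulocytes. Pknox1 (Prep1), a Meis relative, had 11.2, 11.6 and 12.1 FPKM in the LncHSC-1, LncHSC-2 and control libraries and 30.0 and 30.0 FPKM in granulocytes. Tgif1, a TALE repressor, had 20.6, 18.8 and 20.6 FPKM in the LncHSC-1, LncHSC-2 and control libraries. Its relative Tgif2 had log2 ratios of -0.18 for LncHSC-1 over control and -0.15 for LncHSC-2 over control, the largest in both among the 5 at the floor. The list median was 0.00 for LncHSC-1 over control, -0.06 for LncHSC-2 over control and -0.03 for LncHSC-1 over LncHSC-2.

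The activators of Hox loci, 16 of 19 at the floor, hold MLL and its partners, the complex of Mllt3 and chromatin factors known to keep Hox genes on. Their medians were 0.01 for LncHSC-1 over control, -0.03 for LncHSC-2 over control and 0.00 for LncHSC-1 over LncHSC-2. The gene for MLL, Kmt2a, listed under its older symbol Mll1, had 15.7, 15.0 and 15.7 FPKM in the LncHSC-1, LncHSC-2 and control libraries. The highest of the list were Psip1 (LEDGF, which tethers MLL to chromatin) with 61.6, 68.8 and 67.5 FPKM and Wdr5, a core subunit of MLL complexes, with 56.1, 60.6 and 59.2 FPKM in the same libraries. Aff4, the scaffold of the super elongation complex that holds Mllt3, was the 1 gene of the list to pass 25% on FPKM + 1. It did so in LncHSC-2 over control, where 2.29% of all features at the floor were higher by that size. In LncHSC-1 over control Aff4 fell just short of it. It had 11.7 FPKM in the LncHSC-1 library, 11.9 FPKM in the LncHSC-2 library and 9.30 FPKM in the control library, log2 ratios of 0.30 for LncHSC-1 over control and 0.33 for LncHSC-2 over control. The counting intervals ran from 0.25 to 0.40 and from 0.28 to 0.44. Both ratios rest on the 1 control library. Dot1l, the H3K79 methyltransferase that Mllt3 recruits, had 20.9, 19.2 and 19.0 FPKM in the LncHSC-1, LncHSC-2 and control libraries. The 3 Cdx genes, which switch on Hox genes in the embryo, were listed at 0 in all 5 libraries.

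Of 13 genes known as targets of Hoxa9 and Meis1, 12 were at the floor and none passed 25% in any comparison. At most 3.7% of all features at the floor did so in either direction, so this count is near what those shares give. Their medians were -0.02 for LncHSC-1 over control, -0.01 for LncHSC-2 over control and 0.00 for LncHSC-1 over LncHSC-2. Myb, a transcription factor of progenitors, had 113, 119 and 127 FPKM in the LncHSC-1, LncHSC-2 and control libraries. Flt3, a cytokine receptor of progenitors, had 22.0, 24.7 and 24.4 FPKM, and Lmo2, a bridging factor of stem cell transcription complexes, had 360, 343 and 347 FPKM in the same libraries. Bcl2, which blocks cell death, had log2 ratios of -0.19 for LncHSC-1 over control and -0.15 for LncHSC-2 over control. Id2, an inhibitor of E proteins, had 10.8, 9.83 and 8.78 FPKM in the LncHSC-1, LncHSC-2 and control libraries, a log2 ratio of 0.27 for LncHSC-1 over control. Cd34, also in the sort list, was the gene at the floor that differed most between the knockdowns, at -0.22 for LncHSC-1 over LncHSC-2. In granulocytes Flt3 was at 1.03 and 0.897 FPKM and Sox4, another of the list, at 0.217 and 0.163 FPKM, while Syk, a kinase that mature myeloid cells use, was at 145 and 141 FPKM.

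Of the marker lists of other cell types, those of B lineage, monocyte and megakaryocyte genes held genes past 25% in LncHSC-1 over control, and the others held none there. Among all features at the floor, 3.7% were higher and 2.13% lower by that size in LncHSC-1 over control. For LncHSC-2 over control the shares were 2.29% and 1.64%. Counts of 0 or 1 in lists this small cannot be set apart from those shares. B lineage markers summed to 106 FPKM in the LncHSC-1 library, 61.1 FPKM in the LncHSC-2 library and 58.5 FPKM in the control library. All 6 of these markers at the floor were past 25% in LncHSC-1 over control, with a median log2 ratio of 0.87, and none in LncHSC-2 over control. Monocyte, macrophage and dendritic markers summed to 248, 152 and 142 FPKM in the LncHSC-1, LncHSC-2 and control libraries. In LncHSC-1 over control 4 of 5 at the floor were past 25%. They were Mpeg1, Ly86, Cd74 and H2-Aa, with log2 ratios of 0.44, 0.67, 0.94 and 0.88. Cd68, also at the floor, had 0.19. Below the floor, Csf1r, Adgre1 and Itgax had 0.03, 0.01 and 0.02 in the same comparison. Whether the 4 genes were higher for a reason separate from that of the B lineage markers was not tested. Megakaryocyte markers summed to 678 FPKM in the LncHSC-1 library, 646 FPKM in the LncHSC-2 library and 530 FPKM in the control library, with 2 of 5 past 25% in LncHSC-1 over control and 1 of 5 in LncHSC-2 over control. Granulocyte markers had 0 of 6 at the floor past 25% in LncHSC-1 over control, and 1 higher and 1 lower in LncHSC-2 over control. Erythroid markers had 0 of 3 past 25% in LncHSC-1 over control and 1 lower in LncHSC-2 over control. Neither of the 2 mast cell markers at the floor passed 25% in any comparison, and no T or NK marker reached the floor, their sum being at most 1.33 FPKM in a KSL library. The B lineage genes Pax5 and Ebf1 had 2.49 and 0.585 FPKM in the LncHSC-1 library, and none of the 8 B lineage markers was at 0 in any library. Every ratio above with the LncHSC-1 library on top stands beside these marker levels, and the part of other cells in those ratios was not tested.

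**Figure D4:**
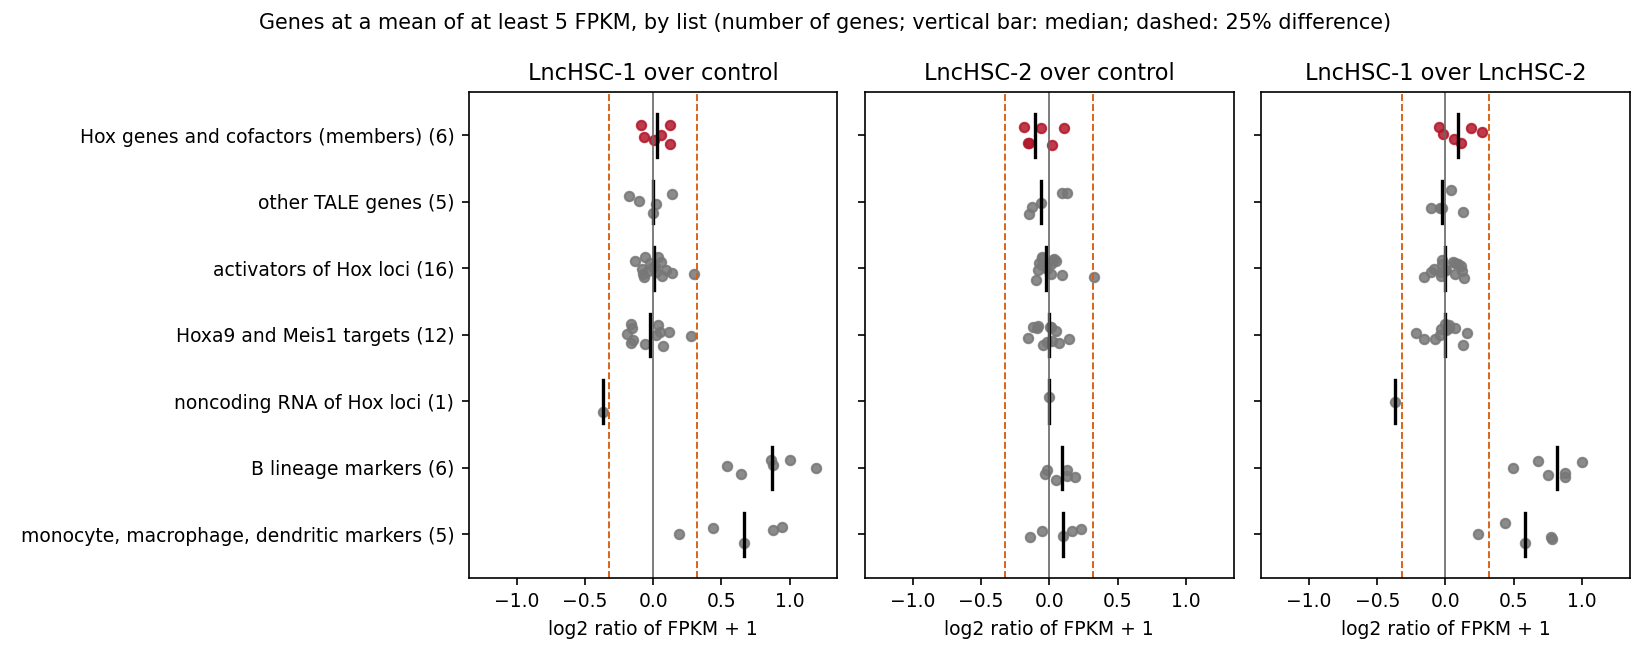
Log2 ratio of FPKM + 1 between KSL libraries for each gene at a mean of at least 5 FPKM, by list, with the number of genes, the median as a vertical bar and dashed lines at a 25% difference. The 6 Hox genes and cofactors lie inside the dashed lines in all 3 comparisons, while the B lineage markers lie outside them wherever the LncHSC-1 library is on top.

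Genes with a pattern like that of Meis1 and Hoxa9 were sought among 19280 named genes, by the Euclidean distance of log2(FPKM + 1) over 4 samples, the 3 KSL libraries and the granulocyte mean. Nearest to Meis1 were Slc22a3, an organic cation transporter (distance 0.106), Gpatch4 (0.220) and Msi2, an RNA-binding protein of blood stem cells (0.221). Slc22a3 had 36.8, 33.3 and 38.2 FPKM in the LncHSC-1, LncHSC-2 and control libraries and 0.181 FPKM as the granulocyte mean. Among the genes nearest to Hoxa9 were Slamf1 (CD150), a surface marker of long-term stem cells (distance 0.0690), and Tnip3 (0.116). Slamf1 had 10.8, 8.92 and 10.4 FPKM in the LncHSC-1, LncHSC-2 and control libraries and 0.0485 FPKM as the granulocyte mean. A distance this small mostly says that the levels are alike in each KSL library and near 0 in granulocytes. Differences between the KSL libraries also enter it. Rsad1, with 10.7, 10.6 and 10.2 FPKM in the LncHSC-1, LncHSC-2 and control libraries, was farther from Hoxa9 than Slamf1 (distance 0.211).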

How the data were processed

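Gene expression was read from 5 deposited tables, 3 of KSL libraries and 2 of granulocyte libraries. DESeq and the mouse build mm9 are named in the submitters' processing notes. Aligner, counter and strand setting were not given in the sources used here. FPKM values as deposited by the authors were used as scaled. The count columns of the KSL tables as deposited hold a scaled signal: a step shared by 91.9% to 92.2% of values up to 20 reads (tolerance 0.1 reads) was taken as 1 read, which gave the estimated reads. The count columns of the granulocyte tables as deposited hold a rounded score, and the FPKM beside it are the score per kilobase divided by 50. No columns were left out as belonging to another study.

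From these values the log2 ratio of FPKM + 1 was computed for each feature with a mean of at least 5 FPKM over the 3 KSL libraries, with a 95% interval from the exact binomial distribution of the estimated reads. These intervals cover counting error only, and reads without molecular identifiers are not independent molecules. A percentile is the share of features above 0 in a library that lie below the gene. The calculations were checked on simulated data. Python 3.11.15, pandas 2.3.3, numpy 2.4.6, scipy 1.17.1 and matplotlib 3.10.9 were used.

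The 9 genes and all lists were chosen with earlier results of these data known. The text names the 9 genes, Hox genes reaching 1 FPKM in any library, and of each other list the 4 highest genes and the 3 with the largest ratio in each comparison; some genes that this rule takes are not reported here. HAG_004589, HAG_032762, Hoxb1, Kmt2a, Sox4, Syk and marker genes outside this rule were named after their values were seen. Alternatives were other pseudocounts, floors and scalings, the deposited count columns, and either granulocyte replicate alone.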

Additional observations from a re-analysis of the deposited data

How the results depend on the processing

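No paired analysis was possible because each KSL group has 1 library and the granulocyte libraries are technical replicates. On FPKM + 1 no ratio of the 9 genes reached a 25% difference, so there was none to reverse. Without a pseudocount Hoxb5 reached it in LncHSC-1 over control, at -0.33. With median-of-ratios scaling of FPKM or of the count columns, 0 of the 9 genes changed sign. Pseudocounts of 0.1 or 5 FPKM change the size of a ratio but cannot change its sign. The sum of all features of a symbol equals the main value, since each of the 9 genes has 1 feature. Those settings therefore could not show a change of sign. The deposited count columns put the median log2 ratio of all features at -0.14 for LncHSC-2 over control and at 0.12 for LncHSC-1 over LncHSC-2. In that setting Hoxa7 and Pbx2 changed sign in both comparisons. Also, 1 of the 9 genes (Mllt3) was then past 25% in LncHSC-2 over control and 2 (Hoxa9 and Hoxa10) were in LncHSC-1 over LncHSC-2; the same columns after median-of-ratios scaling gave 0 in both.

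Counts over all features depend on the floor, since more low features are then included. With a floor of 1 FPKM the counts higher and lower by 25% were 738 and 446 for LncHSC-1 over control, 472 and 398 for LncHSC-2 over control, and 678 and 463 for LncHSC-1 over LncHSC-2. At 2-fold they were 123 and 98, 110 and 99, and 104 and 105 in the same order of comparisons. With no floor they were 1153 and 740, 815 and 697, and 1112 and 769 at 25%, and 151 and 132, 137 and 128, and 133 and 133 at 2-fold. With the deposited count columns the counts higher and lower by 25% were 123 and 575 for LncHSC-2 over control, against 210 and 150 in FPKM, and 846 and 120 for LncHSC-1 over LncHSC-2, against 302 and 231.

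Percentiles depend on the features they are set against: Hoxb4 in the control library was at 45.5 among detected features, 72.2 among all features and 32.5 among named genes. With 1 granulocyte replicate left out, each level is that of the other: Hoxa5 is then 0.0107 or 0.0320 FPKM, against a mean of 0.0213, and Hoxa10 is 0 or 0.0191 FPKM, against a mean of 0.00956; the other 7 genes move by under 1.5 times. Depth limits Hoxb5, Hoxb4 and Hoxa5 most.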
